A study of Mus musculus with 6 samples.

Results

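The collagen chain genes are the rows of the deposited gene table whose name is Col, a type number, the letter a and a chain number with nothing after it. There were 44 of them among 54532 rows. RNA was sequenced from MC3T3-E1, a mouse pre-osteoblast line from skull bone, in 3 control libraries kept under normal conditions and 3 libraries treated with glucocorticoid (GC), all sampled at 12 hours. The series' design calls the replicates biological, all from this 1 cell line, and the sources used here name neither the glucocorticoid nor its dose. The values are FPKM, reads per gene scaled for exon length and for library depth.

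Collagens are secreted proteins of 3 chains wound into a triple helix, in which glycine recurs at a fixed spacing along each chain. Fibrillar collagens form the rope-like fibrils of bone, skin and cartilage, and type I is the bulk of bone matrix. Others form sheets in basement membranes, beaded microfibrils around cells, or decorate fibrils (the FACIT group), and a few span the cell membrane. Osteoblasts lay down type I collagen as the scaffold that is later mineralised, and long glucocorticoid exposure is known to lower bone formation.

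The repeat that defines the family is visible in the coding sequence as a glycine codon, GGN, followed by 2 other codons, over and over. The following stretches from the GENCODE M21 transcripts are shown because they set a fibrillar chain beside a broken one, with the GGN codons of the repeat in capitals. For Col1a2 (codons 97 to 120), Col5a3 (478 to 501) and Col11a1 (527 to 550) they are the first 8 repeats of the longest unbroken run, and for Col4a1 (codons 212 to 237) they span the shortest break in its repeat, of 2 codons.
Col1a2: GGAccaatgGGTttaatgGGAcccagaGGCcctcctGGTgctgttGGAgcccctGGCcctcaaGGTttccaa
Col5a3: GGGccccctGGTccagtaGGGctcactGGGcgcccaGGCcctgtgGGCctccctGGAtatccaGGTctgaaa
Col11a1: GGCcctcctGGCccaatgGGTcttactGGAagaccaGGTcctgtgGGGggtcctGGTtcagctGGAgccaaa
Col4a1: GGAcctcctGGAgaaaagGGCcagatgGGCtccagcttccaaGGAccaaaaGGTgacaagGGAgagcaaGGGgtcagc

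The classes differed in how long the repeat runs without a break. In the 11 fibrillar chains the longest unbroken run held 216 to 344 repeats, with a median of 338, and the 2 short ones were Col27a1 (217) and Col24a1 (216). In runs of at least 5 repeats, the 6 basement membrane chains carried 425 to 444 repeats, against 327 to 364 in the fibrillar chains. The longest unbroken run of the basement membrane chains was 39 to 66. In Col12a1, a FACIT chain of 3065 codons, only 8.12% of the codons lay in runs of at least 5 repeats.

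**Figure D1:**
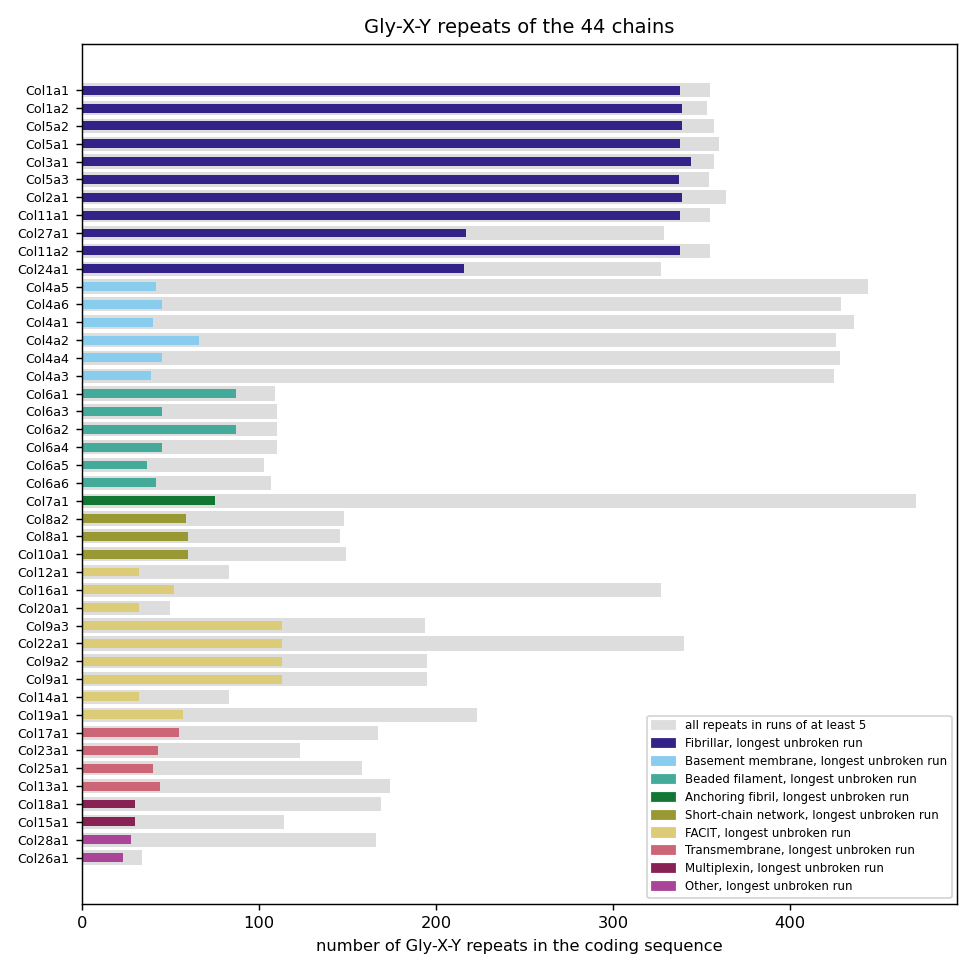
Number of Gly-X-Y repeats (a glycine codon and 2 others) in the longest coding sequence of each of the 44 chains: grey bars, all repeats in runs of at least 5; coloured bars, the longest unbroken run. Fibrillar chains have one long run of about 338 repeats, apart from Col27a1 and Col24a1, while basement membrane chains have many short runs.

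Collagen RNA of these cells was mostly type I. The 44 chains summed to 3592, 3464 and 3478 FPKM in control 1 to 3 and to 3152, 3349 and 2549 FPKM in GC 1 to 3. Col1a1 and Col1a2, the chains of type I collagen, made up 72.5% ± 0.346 of that sum in control and 69.9% ± 1.61 in GC (SD, n = 3 each). The fibrillar class as a whole made up 79.5% ± 0.416 and 77.9% ± 1.80, and the beaded filament class of type VI chains 11.5% ± 0.208 and 11.1% ± 0.436. All collagen chains together took 1.16% ± 0.0115 of the summed FPKM in the controls and 0.961% ± 0.182 in GC, with GC replicate 2 (1.16%) inside the control range of 1.15% to 1.17% and GC replicates 1 (0.920%) and 3 (0.802%) below it.

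Of the 44 chains, 21 reached 1 FPKM in 3 or more libraries and entered the test, among 11729 genes. They were 9 of 11 fibrillar, 4 of 6 basement membrane, 3 of 6 beaded filament, 2 of 3 short-chain network, 2 of 9 FACIT and 1 of 2 multiplexin chains. None of the 4 transmembrane chains and neither the anchoring fibril chain Col7a1 nor Col26a1 and Col28a1 passed. In control, Col1a1 averaged 1755 FPKM, Col1a2 791 FPKM, Col6a1 209 FPKM, Col6a3 117 FPKM and Col12a1 110 FPKM, and the lowest tested chains, Col11a1 and Col27a1, both 1.07 FPKM.

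**Figure D2:**
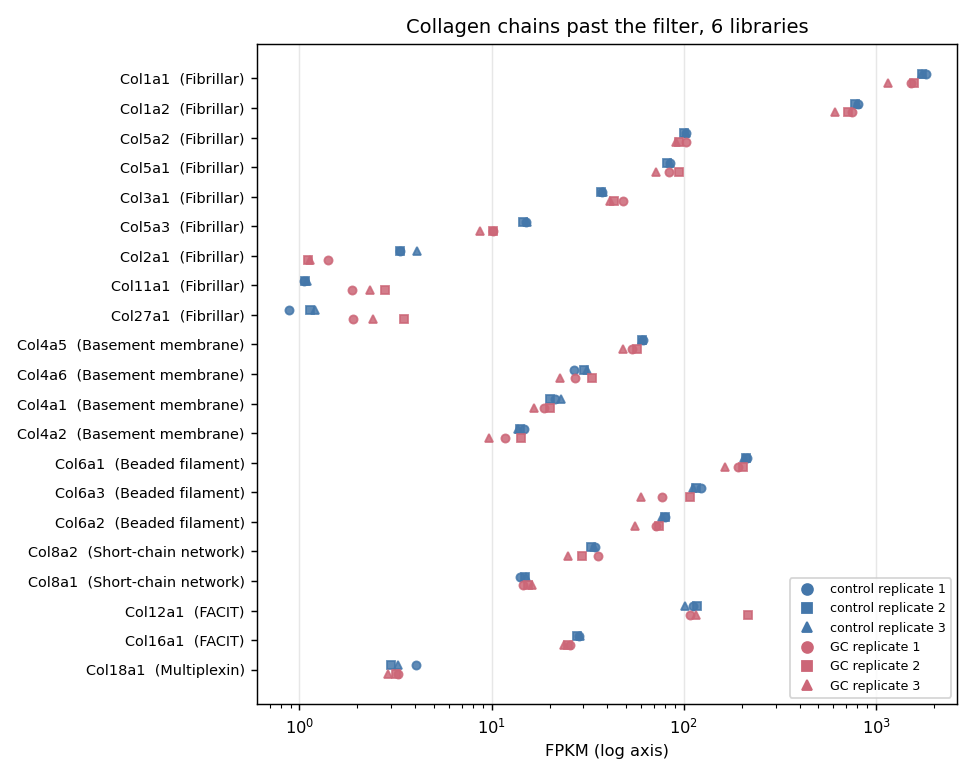
FPKM on a log axis of the 21 tested collagen chains in each of 3 control (blue) and 3 GC (red) libraries, ordered by class and control level. Control libraries lie close together for most chains, the GC libraries spread more, and GC replicate 3 is the lowest of all 6 libraries for 15 of the 21 chains.

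Fold changes are differences of mean log2(FPKM + 1), GC minus control, and understate changes of chains near 1 FPKM. At an adjusted p under 0.05 (limma-trend, Benjamini-Hochberg over all tested genes) 2 chains fell, Col2a1 and Col5a3, none rose and 19 did not pass. Of all tested genes 1.94% passed in either direction, 1.08% as higher and 0.853% as lower in GC. Both calls were kept with a pseudocount of 0.1, where 1.79% of genes passed, and with equal library sums, where 2.17% did, and both were lost with no filter, without any 1 control library and without GC replicate 3. With the replicate number as a block, a pairing that the labels do not state and the values did not settle, Col11a1 and Col27a1 also passed, as higher. That fit called 8.99% of all tested genes. Both chains also passed by limma-voom and with exon-length centring. The fold change was negative for 16 of the 21 chains and positive for 5, with a median of -0.18, while 52.3% of all tested genes were negative with a median of -0.01. Without GC replicate 3, 14 chains were negative and 7 positive, with a median of -0.08. In 10 chains all 3 GC libraries lay below all 3 control libraries and in 3 chains all lay above, where 14.7% and 10.8% of all tested genes did so (25.6% in either direction). Both chains that fell and the 4 changes of greatest size were fibrillar.

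**Figure D3:**
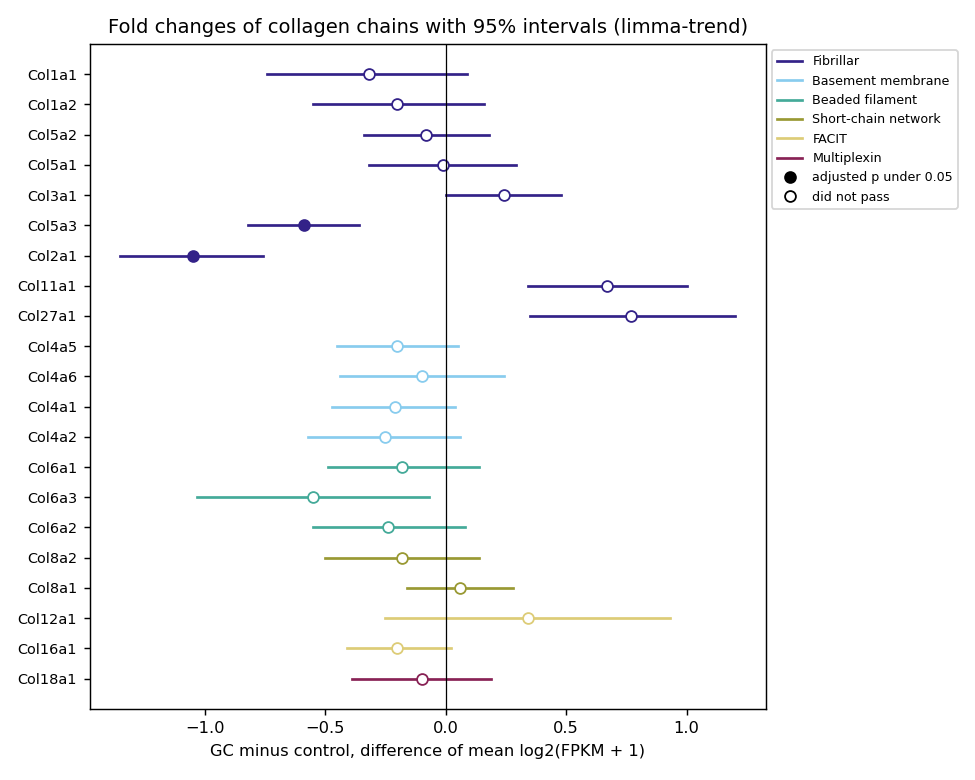
Difference of mean log2(FPKM + 1), GC minus control, with its 95% interval (limma-trend) for the 21 tested chains, coloured by class; filled points passed an adjusted p of 0.05. The intervals of Col2a1 and Col5a3 lie below 0 and those of Col11a1 and Col27a1 above it; the interval of Col6a3 also lies below 0, and the other 16 reach 0 or cross it.

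Col2a1, the chain of type II collagen and the main fibril of cartilage, was the chain with the greater fall. It read 3.33, 3.35 and 4.11 FPKM in control 1 to 3 and 1.40, 1.11 and 1.14 FPKM in GC 1 to 3, from 495, 486 and 598 reads and 219, 173 and 181 reads. All GC libraries lay below all controls, and the GC mean of 1.21 ± 0.159 FPKM was 0.337 times the control mean of 3.60 ± 0.447 FPKM (SD, n = 3 each). The log2 fold change was -1.05 ± 0.13 (SE) with an adjusted p of 0.0146 by limma-trend. With a pseudocount of 0.1 it was -1.49, and by limma-voom on reads -1.57. The call ended without control replicate 1 (adjusted p = 0.0502), 2 (0.0663) or 3 (0.0762) and without GC replicate 3 (0.0939), at fold changes of -1.09, -1.09, -0.97 and -1.03. Those 4 fits called 0.315%, 0.281%, 0.247% and 0.136% of all tested genes, and the fit without GC replicate 1 called 0.963%. The gene (ENSMUSG00000022483.17) lies on the minus strand of chromosome 15 from 97975602 to 98004695 in mm10.

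Among the markers of cartilage cells, Sox9, the transcription factor that drives Col2a1 in chondrocytes, read 18, 17 and 16.1 FPKM in the controls and 15.8, 16 and 11.6 FPKM in GC, without overlap and without passing (limma-trend, adjusted p = 0.405). It was the 1 tested member of 8 chondrocyte markers, whose summed level was 17.1 to 19 FPKM in the controls and 12.8 to 17.7 FPKM in GC. Acan, the cartilage proteoglycan that defines these cells, was listed at 0 in all controls and at no more than 0.0237 FPKM in GC. Whether cells of another type contribute to the Col2a1 values was not tested. In bulk RNA, fewer cells of a type and less RNA per cell cannot be told apart.

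Col5a3, a minor chain of type V collagen that can assemble with Col5a1 and Col5a2, was the other chain that fell. It read 15, 14.5 and 15.2 FPKM in the controls and 10.1, 10.1 and 8.65 FPKM in GC, a log2 fold change of -0.59 ± 0.10 (SE) with an adjusted p of 0.0336 by limma-trend. The groups did not overlap. The call ended without any 1 control library (adjusted p = 0.134, 0.156 and 0.146 without replicate 1, 2 and 3) and without GC replicate 1 (0.0518) or 3 (0.122). The fold changes in those fits were -0.58, -0.61, -0.57, -0.62 and -0.52, and the fits called 0.315%, 0.281%, 0.247%, 0.963% and 0.136% of all tested genes. The gene (ENSMUSG00000004098.7) lies on the minus strand of chromosome 9 from 20770050 to 20815067.

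Neither partner chain of type V passed the test. Col5a1, the chain that starts fibril formation with type I collagen, had a control mean of 83.5 ± 1.47 FPKM and a GC mean of 83.2 ± 11.6 FPKM, a log2 fold change of -0.01 with a 95% interval of -0.32 to 0.29. Col5a2 averaged 101 ± 1.63 and 96.3 ± 6.40 FPKM, a log2 fold change of -0.08. The ratio of Col5a3 to Col5a1 FPKM, a pair that was not planned, was 0.178, 0.177 and 0.181 in control and 0.12, 0.106 and 0.121 in GC. The groups did not overlap, which restates the fall of Col5a3 beside a level Col5a1. The ratio of Col5a1 to Col5a2 was 0.823, 0.821 and 0.825 in control and 0.813, 0.998 and 0.784 in GC, where the GC libraries lay on both sides of the controls. Ratios are described with no test, since 3 libraries against 3 allow an exact permutation p of 0.10 at the lowest.

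Col11a1 and Col27a1 were higher in every GC library and did not pass the test. Col11a1, a chain of type XI collagen that nucleates thin fibrils and joins type II in cartilage, read 1.05, 1.07 and 1.10 FPKM in the controls and 1.87, 2.77 and 2.32 FPKM in GC, from 215, 215 and 220 reads and 404, 597 and 509 reads. Its log2 fold change was 0.67 ± 0.14 (SE) with an adjusted p of 0.0620 by limma-trend. Col27a1, a fibrillar chain with a shortened helix known from cartilage, read 0.884, 1.14 and 1.20 FPKM in the controls and 1.89, 3.51 and 2.42 FPKM in GC, a log2 fold change of 0.77 ± 0.18 (SE) with an adjusted p of 0.0827. GC means were 2.16 and 2.42 times the control means in FPKM. Control 1 of Col27a1 was below 1 FPKM, so this chain met the filter only with the help of the GC libraries. The fits with the block, by limma-voom and with exon-length centring used the same filter.

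Both chains passed in other fits of the same libraries. With the replicate number as a block the adjusted p was 0.0305 for Col11a1 and 0.0246 for Col27a1, in a fit that called 8.99% of all tested genes. By limma-voom on recovered reads it was 0.0109 and 0.0269, with log2 fold changes of 1.09 and 1.24, in a fit that called 3.26%. Among genes with at least 1 FPKM in all 6 libraries, of which 2.45% passed, the adjusted p of Col11a1 was 0.0321 by limma-trend, and Col27a1 was not in that set. Col11a1 (ENSMUSG00000027966.20) lies on chromosome 3 from 114030540 to 114220718 and Col27a1 (ENSMUSG00000045672.15) on chromosome 4 from 63214004 to 63334991, both on the plus strand. The ratio of Col2a1 to Col11a1 FPKM, a pair chosen after the values were seen, was 3.17, 3.12 and 3.75 in control and 0.747, 0.400 and 0.490 in GC. This ratio had to be lower in every GC library, since Col2a1 was lower and Col11a1 higher there.

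Upstream sequences are shown for 1 chain that fell, Col5a3, and 1 that was higher in every GC library, Col11a1. RefSeq promoter windows (GRCm38.p6, 250 bases before to 50 after the start) were matched for 35 of the 44 genes, in 38 windows. Capitals mark the GC box GGGCGG, named for its bases and not the treatment, and the CCAAT box CCAAT on either strand, and only the bases before the start are printed, so that a GC box of Col5a3 that crosses the start is not capitalised. Col5a3 is chr9:20815068-20815317 read on the minus strand, and Col11a1 is chr3:114030290-114030539 on the plus strand.
Col5a3: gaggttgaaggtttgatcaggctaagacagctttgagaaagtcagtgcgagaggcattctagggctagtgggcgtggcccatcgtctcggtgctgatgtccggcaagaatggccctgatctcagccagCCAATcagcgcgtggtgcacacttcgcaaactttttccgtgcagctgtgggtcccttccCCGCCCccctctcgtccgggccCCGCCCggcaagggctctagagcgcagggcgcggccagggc
Col11a1: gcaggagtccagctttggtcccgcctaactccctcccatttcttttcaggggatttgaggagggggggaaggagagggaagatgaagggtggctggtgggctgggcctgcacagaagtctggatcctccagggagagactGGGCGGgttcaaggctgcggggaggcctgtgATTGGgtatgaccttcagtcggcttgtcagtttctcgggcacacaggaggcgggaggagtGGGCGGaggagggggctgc

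The GC box was found in 23 of the 38 collagen windows, or 60.5%, against 35.7% of all 32851 windows. CCAAT was found in 34.2% against 37.4%, and the TATA box TATAAA in 13.2% against 13.6%. The glucocorticoid receptor motif AGAACA was found on either strand in 2 of the 38 windows, those of Col20a1 and Col9a1, and in 19% of all windows. The full glucocorticoid response element, AGAACA and TGTTCT with 3 bases between them, which contains the shorter motif on each strand, was in 0 of the 38 and in 0.00913% of all windows. A match is only a run of letters, and windows of this length say nothing of more distant sites.

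**Figure D4:**
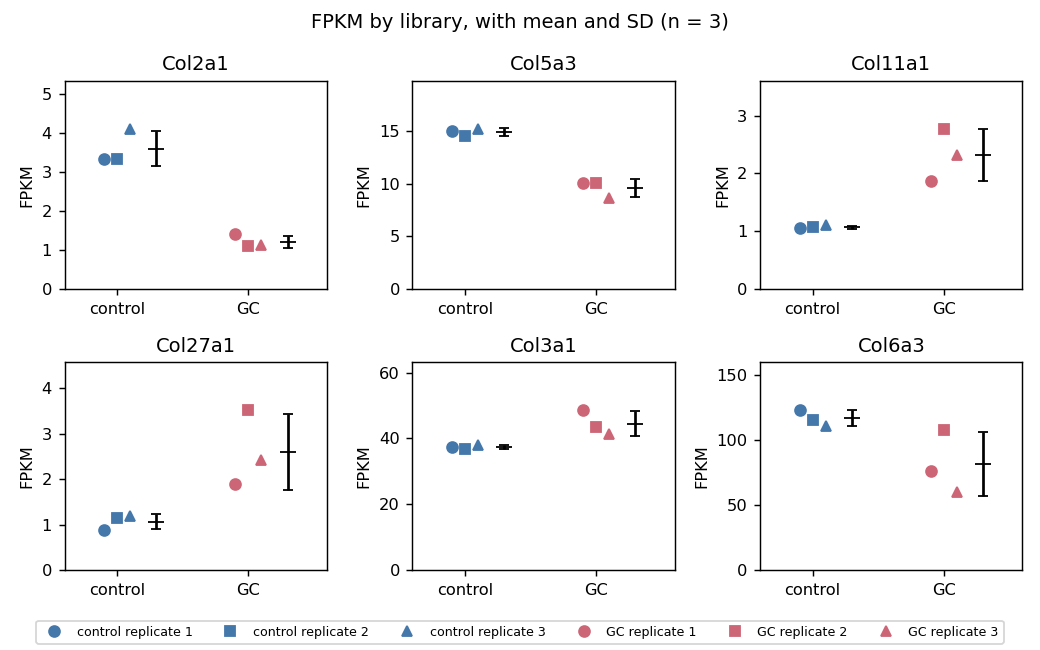
FPKM of 6 collagen chains in each control (blue) and GC (red) library, with the group mean and SD (n = 3) beside the points. The 6 chains were picked by name and are all among the chains whose groups do not overlap, as is true of 25.6% of all tested genes. The lack of overlap in the panels therefore follows from the choice. GC replicate 2 is the highest GC library for Col11a1, Col27a1 and Col6a3.

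The chains of type I and type III collagen moved by less than these. Col1a1 read 1810, 1723 and 1733 FPKM in the controls and 1511, 1579 and 1159 FPKM in GC, a log2 fold change of -0.32 ± 0.18 (SE) with an adjusted p of 0.381 by limma-trend. Col1a2 read 802, 774 and 795 FPKM in the controls and 750, 718 and 610 FPKM in GC, a log2 fold change of -0.20. For both chains the GC libraries lay below the controls, with GC replicate 3 lowest, and without it the fold changes were -0.18 and -0.11. The ratio of Col1a1 to Col1a2 FPKM was 2.26, 2.23 and 2.18 in control and 2.01, 2.20 and 1.90 in GC, where type I collagen is assembled from 2 chains of the first and 1 of the second.

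Col3a1, whose product forms fibrils of 3 equal chains in soft connective tissue, read 37.4, 36.9 and 38.1 FPKM in the controls and 48.5, 43.5 and 41.4 FPKM in GC. All GC libraries lay above the controls, with a log2 fold change of 0.24 and an adjusted p of 0.260 by limma-trend. As a ratio to Col1a1, a pair that was not planned, Col3a1 was 0.0206, 0.0214 and 0.0220 in control and 0.0321, 0.0276 and 0.0357 in GC. The groups of this ratio had to lie apart, since Col3a1 was higher and Col1a1 lower in every GC library. Exons of Col3a1 share 141 bases with the miRNA gene Gm47302 on the same strand, 1.44% of its exon length.

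Type VI collagen forms beaded microfibrils from Col6a1, Col6a2 and a larger chain that is most often Col6a3. Col6a3 read 123, 116 and 111 FPKM in the controls and 76.5, 108 and 60 FPKM in GC, a log2 fold change of -0.55 ± 0.21 (SE) with an adjusted p of 0.206 by limma-trend. GC replicate 2 was close to the controls and the other GC libraries far below them, and without GC replicate 2 the fold change was -0.77 and the adjusted p 0.0245, in a fit that called 10.5% of all tested genes. Without GC replicate 3 they were -0.35 and 0.487. Col6a1 averaged 209 ± 4.31 and 186 ± 21 FPKM and Col6a2 78.8 ± 1.98 and 67.3 ± 10 FPKM, with log2 fold changes of -0.18 and -0.24. The ratio of Col6a3 to Col6a2 was 1.54, 1.45 and 1.44 in control and 1.07, 1.46 and 1.07 in GC. Col6a4, Col6a5 and Col6a6, which can stand in for Col6a3 in other tissues, had at most 12, 0 and 1 reads in any library.

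All 4 tested basement membrane chains had negative fold changes that did not pass, from -0.10 to -0.25. Col4a1 and Col4a2, the chains of the common type IV network, had control means of 21.5 ± 1.45 and 14.2 ± 0.582 FPKM and GC means of 18.4 ± 1.73 and 11.9 ± 2.23 FPKM. Col4a5 and Col4a6, found in specialised basement membranes, had control means of 60.9 ± 0.423 and 29.4 ± 2.37 FPKM and GC means of 53.1 ± 4.32 and 27.7 ± 5.27 FPKM, so both stood above Col4a1 and Col4a2 in control FPKM. Col4a3 and Col4a4, known from kidney and lung basement membrane, held 2 to 14 and 4 to 12 reads a library.

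The 6 type IV genes lie in 3 head-to-head pairs. In GENCODE M21 the starts of Col4a1 and Col4a2 are 21 bases apart on chromosome 8 with 22 shared exonic bases, those of Col4a3 and Col4a4 72 bases apart on chromosome 1, and those of Col4a5 and Col4a6 1309 bases apart on chromosome X. Both members of each pair were on the same side of the 1 FPKM filter. The ratio of Col4a1 to Col4a2 was 1.44, 1.44 and 1.69 in control and 1.6, 1.41 and 1.71 in GC, with overlapping groups. Of the fibrillar chains, Col3a1 and Col5a2 lie 24614 bases apart on chromosome 1 on opposite strands.

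Among the FACIT chains, which sit on the surface of fibrils, Col12a1 and Col16a1 were tested. Col12a1, which coats type I fibrils, read 112, 117 and 101 FPKM in the controls and 108, 216 and 116 FPKM in GC. Only GC replicate 2 was high, and the log2 fold change of 0.34 was 0.03 without it. Col16a1 read 28.6, 27.8 and 28.8 FPKM in the controls and 25.6, 24.8 and 23.7 FPKM in GC, a log2 fold change of -0.20 with an adjusted p of 0.289 by limma-trend. The groups of Col16a1 did not overlap and the GC libraries lay within a narrow range.

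The short-chain network genes Col8a1 and Col8a2, which form the hexagonal lattice of Descemet's membrane in the eye, had control means of 14.7 ± 0.546 and 33.8 ± 0.676 FPKM and GC means of 15.4 ± 0.933 and 30.0 ± 5.55 FPKM. Neither passed, with log2 fold changes of 0.06 and -0.18. Col18a1, a multiplexin whose end fragment is endostatin, averaged 3.43 ± 0.561 and 3.11 ± 0.189 FPKM, a log2 fold change of -0.10 with a 95% interval of -0.39 to 0.19.

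The other 23 chains were below the filter, with at most 0.804 FPKM in any library, and 3 of them, Col6a5, Col19a1 and Col13a1, were listed at 0 in all 6. The highest, the FACIT chain Col20a1, had 9, 8 and 16 reads in control (0.109, 0.0991 and 0.198 FPKM) and 50, 70 and 52 reads in GC (0.573, 0.804 and 0.586 FPKM). All GC libraries were above the controls, as also for Col24a1, Col6a4 and Col9a3 at 17 reads or fewer in any library. The share of all genes below the filter that did so was not counted, so this says nothing particular to collagen chains. Exons of Col9a3 share 234 bases with Tcfl5 on the opposite strand, 6.07% of its exon length. In a fit with no filter Col20a1 had an adjusted p of 0.201 by limma-trend and no collagen chain passed, Col2a1 and Col5a3 included, where 0.0636% of all genes did; 7 of 41 chains had an unadjusted p under 0.05, as did 10.6% of all genes. Col10a1, the mark of hypertrophic cartilage, had 9, 10 and 1 reads in control and 2, 3 and 1 in GC. Col7a1 of skin anchoring fibrils stayed between 0.0990 and 0.235 FPKM, and Col17a1 of epithelial hemidesmosomes between 0.0613 and 0.236 FPKM, with overlapping groups.

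The GC libraries differed from each other, both in the collagen chains and in the genes with long exons. Against the control mean, the median of the 21 tested chains was -0.12, -0.08 and -0.35 on the log2 scale in GC 1, 2 and 3, and 6, 8 and 5 of the 21 were positive. Of the 21 chains 13 fell in the quintile of genes with the longest exons, 7344 to 41155 bases, whose median in GC 1, 2 and 3 was -0.27, 0.01 and -0.15. The median of the collagen chains was thus lowest in GC 3 and that of the quintile in GC 1. With each library centred within quintiles of exon length, a fit chosen after the data were seen, 13 chains were negative and 8 positive, with a median of -0.07. In that fit Col2a1 (-0.91) and Col5a3 (-0.52) were lower and Col11a1 (0.81) and Col27a1 (0.92) higher, with adjusted p-values of 0.0258, 0.0242, 0.0152 and 0.0191 by limma-trend, and 3.44% of genes passed.

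**Figure D5:**
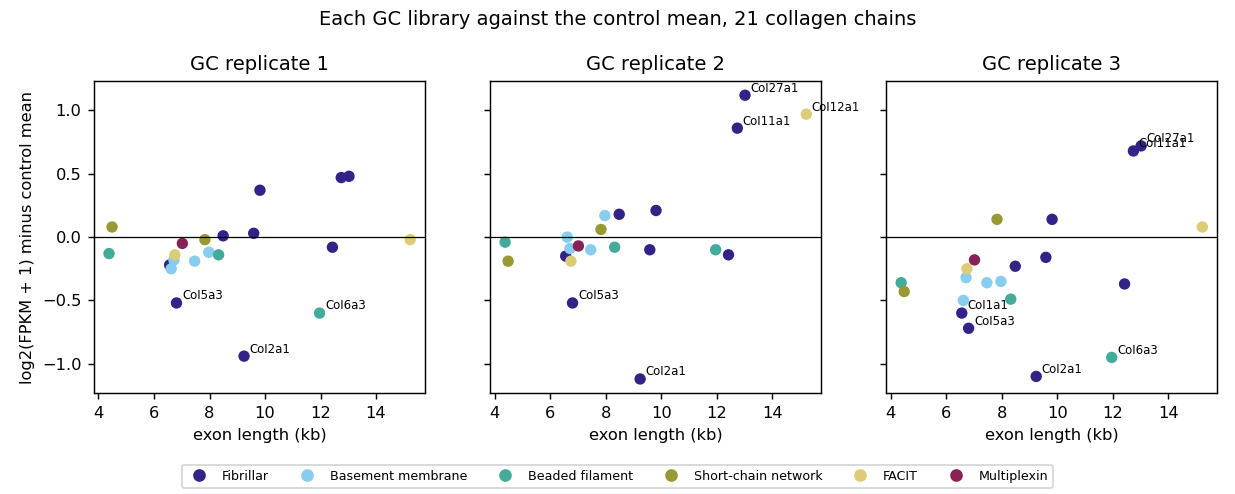
Log2(FPKM + 1) of each tested chain in the 3 GC libraries minus the control mean, against exon length in kb; colours are classes, and chains further than 0.5 from 0 are named. Col11a1 and Col27a1 lie above 0 and Col2a1 and Col5a3 below in all 3 panels, Col12a1 stands high in GC replicate 2, and most chains lie lowest in GC replicate 3.

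Genes that make and process collagen showed no change past the threshold. Of 26 tested members of 29 listed, none rose or fell by limma-trend, where 1.94% of all tested genes passed. Fold changes were positive in 16 and negative in 10, with a median of 0.09. An unadjusted p under 0.05 was found in 5, as in 19.3% of all tested genes. All GC libraries lay above the controls in 4 members and below them in 4, or 15.4% each. Of all tested genes 10.8% lay above and 14.7% below. By limma-voom, which called 3.26% of all genes, 1 member fell. P4hb, the shared subunit of prolyl 4-hydroxylase, read 358, 337 and 309 FPKM in the controls and 437, 338 and 354 FPKM in GC. Serpinh1, which encodes the collagen chaperone HSP47, read 264, 248 and 250 FPKM in the controls and 260, 218 and 205 FPKM in GC.

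With the replicate number as a block, 3 of the 26 passed, near the 8.99% of all tested genes that did; they are named here after their values were seen. The prolyl 3-hydroxylase gene P3h2 read 28, 25.6 and 24 FPKM in the controls and 9.94, 18.7 and 11.5 FPKM in GC, a log2 fold change of -0.95 with an adjusted p of 0.0475 with the block and 0.0693 without. P4ha2, a catalytic subunit of prolyl 4-hydroxylase, had a log2 fold change of 0.35 and an adjusted p of 0.0488 with the block. Tmem38b, an ion channel of the endoplasmic reticulum, had 0.46 and 0.0447. The same 3 passed without GC replicate 2, where 10.5% of all tested genes did.

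Of 10 listed collagen receptors 6 were tested and none passed by limma-trend, where 1.94% of all tested genes did. An unadjusted p under 0.05 was found in 2 of them (19.3% of all tested genes), and 1 was higher by limma-voom (3.26% of genes called). Of the 6, 4 had negative fold changes, and the median was -0.18. Itga10, an integrin chain that binds type II collagen on cartilage cells, is named after its values were seen. It read 10.1, 11.8 and 13 FPKM in the controls and 16.7, 18.8 and 18.3 FPKM in GC. Its log2 fold change was 0.59 with an adjusted p of 0.0506 by limma-trend, or 0.0138 with the replicate block. The other of the 2, the discoidin receptor gene Ddr1, named after its values were seen, read 21.6, 22.1 and 20.4 FPKM in the controls and 17.7, 18.2 and 14.5 FPKM in GC, without overlap, a log2 fold change of -0.34 with an adjusted p of 0.170 by limma-trend. Itgb1, the beta chain that collagen-binding integrins share, averaged 237 and 248 FPKM, and Mrc2, which takes collagen up into cells, 81.8 and 76.9 FPKM; neither passed.

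The libraries behind these values held 14445361 to 16123938 recovered reads, of which 379283 to 491230 were of collagen chains. Of the known glucocorticoid targets Tsc22d3 and Fkbp5, both rose: Tsc22d3, which encodes GILZ, read 27 to 29.9 FPKM in the controls and 146 to 171 FPKM in GC, and Fkbp5 11.6 to 13.1 and 27.9 to 31.3 FPKM, with adjusted p-values of 0.000372 and 0.00289 by limma-trend. Of 10 osteoblast markers 7 were tested and none passed, where 1.94% of all tested genes did. The summed levels of the 10 were 1152 to 1370 FPKM in the controls and 1065 to 1375 FPKM in GC, mostly Spp1. With the replicate block and by limma-voom 1 of the 7, Ibsp, passed as higher in GC, in fits that called 8.99% and 3.26% of genes. Ibsp read 0.12, 0.708 and 0.338 FPKM in the controls and 1.37, 2.06 and 1.43 FPKM in GC. It met the filter only through the GC libraries, so it could enter the test only as higher in GC. Alpl, a defining marker, was listed at 0 in all libraries but GC replicate 3. Endothelial, adipocyte, blood and muscle markers summed to less than 1 FPKM in every library. Of 6 epithelial markers only Krt14 was tested, and it fell by limma-trend (adjusted p = 0.0146), a call lost with no filter (0.0699) and without control replicate 1 (0.0645), control replicate 2 (0.0828) or GC replicate 3 (0.0939). Krt14 read 2.26, 2.06 and 1.45 FPKM in the controls and 0.1, 0.168 and 0 FPKM in GC. It met the filter only through the controls, so it could enter the test only as lower in GC. The sum of the epithelial markers, mostly Krt14 in the controls, was 1.83 to 2.50 FPKM in the controls and 0.169 to 0.761 FPKM in GC.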

How the data were processed

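The authors deposited 1 table of 54532 rows with FPKM per gene in 6 libraries. TRIzol extraction and a NEBNext Ultra kit were used, per the labels' protocols. HTSeq, HISAT2, DESeq2 and the build mm10 appear in the submitters' processing notes. The sources used here give no versions, annotation release or strand setting, so reads of a chain and of a gene antisense to it may be mixed. The header names no unit: multiplied by GENCODE M21 exon length and a depth per library, the deposited FPKM came out whole within 0.001 for 96.8% of 26446 rows, and for 42 of the 44 collagen chains. These whole numbers are called recovered reads.

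The test was limma-trend (limma 3.58.1, R 4.3.3; eBayes with trend and robust) on log2(FPKM + 1), for the 11729 genes that reached 1 FPKM in 3 or more libraries; p-values are two-sided and adjusted over those genes by Benjamini-Hochberg, with a threshold of 0.05. The script of this fit was tested on simulated data. Those data held no exon-length differences between libraries, so the simulation does not cover them. limma-voom on recovered reads used the authors' depths as library sizes. Alternatives were another pseudocount, no filter, a stricter filter, equal library sums, the replicate block, leaving out each library, and exon-length centring, the last added after the data were seen. Deviations from the group mean correlated at 0.511, 0.248 and 0.383 between libraries of the same number and at most 0.0233 between others. Deviations sum to 0 within a group, so high values for some pairs push the others down. Whether the libraries are paired was therefore not settled by that measure. The fit without the block stayed the main one, as it had been chosen, and the blocked value is given where it changes a call. The labels say nothing of shared cultures, and p-values measure the spread between these libraries.

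All chains past the filter are named, and chains below it where they define a class or another cell type. In the lists of processing genes and receptors the rule was the members past the threshold, or otherwise the 2 with the highest mean. P3h2, P4ha2, Tmem38b, Itga10 and Ddr1 fall outside that rule and are named after their values were seen. Members and lists were chosen with earlier results of these data known. Repeats were counted in the longest complete coding sequence of each gene in GENCODE M21.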

Additional observations from a re-analysis of the deposited data

How the results depend on the processing

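Over all genes 227 passed by limma-trend, with 17 passing with no filter, 1054 with the replicate block, 361 by limma-voom, 401 with exon-length centring, and 16 to 1227 without 1 library. Of the collagen chains 2 passed, against 0 with no filter and 4 with the replicate block, by limma-voom and with exon-length centring, and 0 to 3 without 1 library (0 without any 1 control or without GC replicate 3, 1 without GC replicate 1, 3 without GC replicate 2). A pseudocount of 0.1 and equal library sums left the side of the threshold and the direction of all 21 chains as they were; equal sums moved the median of all tested genes from -0.01 to -0.06. With at least 1 FPKM in all 6 libraries Col11a1 also passed, and Col27a1 was not tested there. Of the making and processing genes, 0 passed, against 3 with the replicate block, 1 by limma-voom and 0 to 3 without 1 library. Of the receptors, 0 passed, against 1 with the stricter filter, the replicate block, limma-voom and exon-length centring, and 0 to 1 without 1 library. Exon-length centring turned the sign of Col5a2 (0.07), Col5a1 (0.13) and Col4a6 (0.04), none of which passed. Without 1 library the fold change ranged from -0.11 to 0.09 for Col5a1, from -0.24 to 0.03 for Col4a6 and from -0.20 to 0.00 for Mrc2, with the highest value of each (0.09, 0.03 and 0.00) without GC replicate 3. Without GC replicate 3 the fold changes of 10 of the 21 chains shrank by over 1.5 times and 2 changed sign, more than without any other library. The causes were not tested. With the replicate block no collagen call was lost. Chains near 1 FPKM rest on 185 to 245 reads a control library (Col27a1), and those below the filter on 70 reads or fewer.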
